A study of Mus musculus with 12 samples.

Results

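Iron, heme and red-cell clearance genes were examined in bulk RNA sequencing of mouse paraspinal tissue, as the 10 genes *Hmox1*, *Blvrb*, *Lrp1*, *Slc11a1*, *Trf*, *Tfrc*, *Fth1*, *Ftl1*, *Slc40a1* and *Cp*. The genes were taken by symbol from a table of 18996 genes, and all 10 were among the 14765 genes that passed the filter on low counts. The study compared 3 groups of 4 mice each. No operation mice gave unoperated soft tissue taken next to the vertebral column. The other 2 groups gave paraspinal soft and scar tissue on day 7 after surgery, with soft tissue removed but the lamina left in place in SHAM mice and with the lamina excised in Laminectomy mice. The study describes its mice as BALB/c, 5 to 7 weeks old and of both sexes, and no genetic change or drug is given for these 3 groups. Its methods state 3 mice per group where 4 are labelled, so all 4 were used. The p-values set group differences against the spread between these libraries, each taken as a separate mouse. Library totals lay between 16802989 and 18077868 counts, and the lowest count of a member in any mouse was 134. Levels are given as CPM, the counts of a gene per 1000000 counts of its library, scaled between mice by trimmed-mean (TMM) factors. Because the tissue was bulk, more cells of a type and more RNA per cell cannot be told apart in any value below.

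Macrophages that take up damaged red cells open the heme ring with heme oxygenase, which frees iron and biliverdin, and biliverdin reductases turn biliverdin into bilirubin. The freed iron is kept in ferritin, a shell of heavy and light chains, or leaves the cell through ferroportin and is loaded on transferrin for delivery to other cells through the transferrin receptor. Iron levels act on several of these transcripts after transcription, because iron regulatory proteins bind short hairpins called iron-responsive elements. A hairpin in the 5′ untranslated region holds back translation when iron is scarce, and hairpins in the 3′ untranslated region protect the transcript from decay, so a transcript level of ferritin does not give the amount of ferritin protein.

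The hairpins are shown because they mark which members are known to be under this control. A search of all transcripts read from GENCODE (GRCm38) for a C, 5 stem bases, the 6-base loop CAGTGN and 5 bases pairing with the stem found a match in 4 of the 10 members and in 1.9% of the 18281 genes of the table with transcripts there. The loop stands in capitals, and each sequence is written along the transcript. The element of *Slc40a1* (ferroportin) was in the 5′ untranslated region at chr1:45925466-45925492 on the minus strand.
Slc40a1: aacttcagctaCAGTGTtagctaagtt
Those of the ferritin chains were also in the 5′ untranslated region, at chr19:9982733-9982759 on the plus strand for *Fth1* and at chr7:45459780-45459806 on the minus strand for *Ftl1*.
Fth1: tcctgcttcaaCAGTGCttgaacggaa
Ftl1: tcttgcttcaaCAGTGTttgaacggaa
*Tfrc*, the transferrin receptor, had 4 matches in its 3′ untranslated region on the plus strand, at chr16:32631220-32631246, chr16:32631599-32631625, chr16:32631664-32631690 and chr16:32631711-32631737.
Tfrc 1: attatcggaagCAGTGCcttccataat
Tfrc 2: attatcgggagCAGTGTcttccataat
Tfrc 3: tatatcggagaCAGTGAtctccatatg
Tfrc 4: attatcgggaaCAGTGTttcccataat
No match was found in *Hmox1*, *Blvrb*, *Lrp1*, *Slc11a1*, *Trf* or *Cp*, which says only that these letters are not in their transcripts.

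In SHAM tissue, 7 of the 10 members were higher than in No operation tissue (*Hmox1*, *Slc11a1*, *Ftl1*, *Slc40a1*, *Blvrb*, *Lrp1* and *Fth1*), and 1, *Tfrc*, was lower. A gene was called where edgeR's quasi-likelihood test gave a Benjamini-Hochberg adjusted p below 0.05 over all genes tested and the log2 fold change exceeded 0.5 in size. Much of the transcriptome changed by this rule, with 25.7% of the genes tested called higher and 25.1% called lower in SHAM against No operation. In Laminectomy tissue, 4 members (*Hmox1*, *Slc11a1*, *Ftl1* and *Slc40a1*) were called higher against a background of 24.2%, and 1, *Trf*, was called lower against 24.4%. The ranges of the 4 mice in each group did not overlap for 7 members in SHAM against No operation, where 54.5% of all genes did not overlap, and for 4 members in Laminectomy against No operation, where 56.0% did not. Read against all genes, the share of members called higher was above the background in SHAM and less so in Laminectomy. The shares called lower were below it. The share without overlap was above that of all genes in SHAM and below it in Laminectomy. The members were chosen with earlier results of these data known, so an excess of calls over the background is not evidence about them. The median log2 fold change over the 10 members was 0.99 in SHAM and 0.42 in Laminectomy, and over all genes it was within 0.01 of 0 in each. Both comparisons used the same 4 No operation mice.

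**Figure D1:**
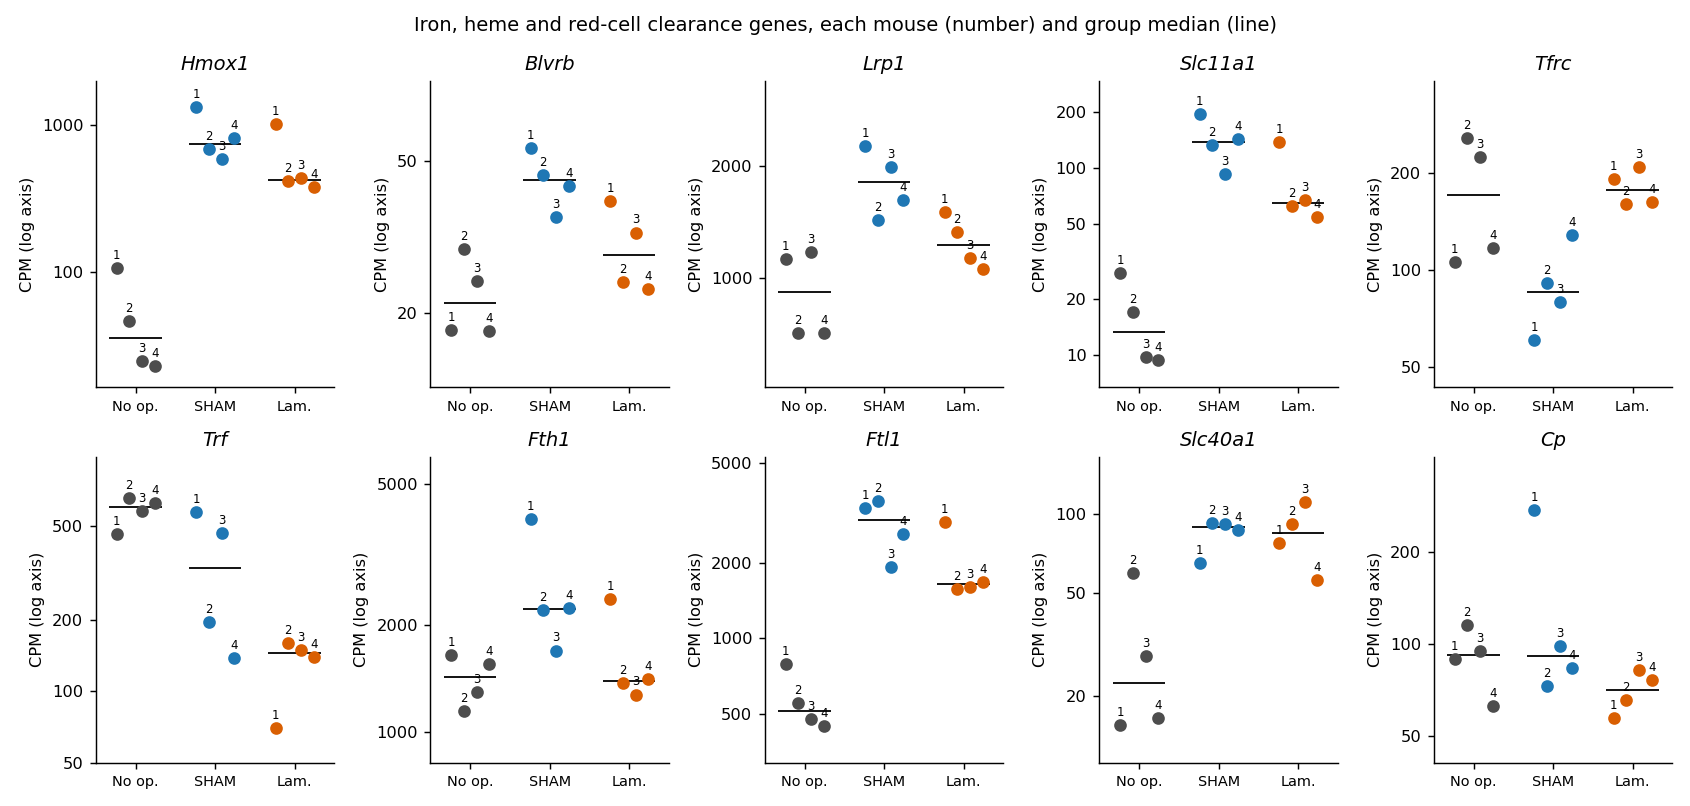
CPM of the 10 members (log axis, 1 panel per gene) in the 3 groups, with each point a mouse marked by its replicate number and the line the median of 4 mice. *Hmox1*, *Slc11a1* and *Ftl1* lie above every No operation mouse in all 8 surgical mice, *Trf* in Laminectomy mice lies below every No operation mouse, and *Tfrc* is lower in all 4 SHAM mice than in any Laminectomy mouse.

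*Hmox1* (gene 15368, chromosome 8, 75093621 to 75100589) encodes heme oxygenase 1, the inducible enzyme that opens the heme ring. No operation mice 1 to 4 had 107, 46.7, 25.0 and 23.1 CPM. The corresponding SHAM values were 1335, 686, 589 and 814 CPM, and the 4 values after laminectomy were 1021, 417, 438 and 382 CPM. Every surgical mouse was above every No operation mouse, with SHAM 1, Laminectomy 1 and No operation 1 the highest of their groups. The fold change was the largest of the members in both comparisons, 16.97-fold in SHAM against No operation (log2 4.08, SE 0.568, adjusted p = 9.73e-05) and 11.2-fold in Laminectomy against No operation (log2 3.48, SE 0.552, adjusted p = 0.000283). Without No operation 1 these log2 fold changes were 4.76 and 4.16.

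*Blvrb* (gene 233016, chromosome 7, 27447978 to 27466144) encodes biliverdin reductase B, which also reduces flavins. Its No operation values were 18.05, 29.3, 24.2 and 17.9 CPM. SHAM mice reached 53.9, 45.9, 35.5 and 42.8 CPM, and Laminectomy mice had 39.2, 24.05, 32.4 and 23.0 CPM. The SHAM mice lay above all No operation mice, whereas the Laminectomy mice overlapped them. *Blvrb* rose 1.99-fold in SHAM tissue (log2 0.99, SE 0.213, adjusted p = 0.00183). In Laminectomy tissue the log2 difference from No operation was 0.41, with a 95% interval of -0.06 to 0.87 and an adjusted p of 0.117. That difference was called without No operation 2 (log2 0.56, adjusted p = 0.0412) and with library sizes as the only scaling (log2 0.71, adjusted p = 0.0133), within a range of adjusted p from 0.0133 to 0.336 over all settings tried.

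*Lrp1* (gene 16971, chromosome 10, 127538161 to 127621148) encodes a large endocytic receptor that takes up heme bound to hemopexin along with many other ligands. The No operation group measured 1123, 709, 1174 and 709 CPM. Values rose to 2267, 1434, 1997 and 1623 CPM under SHAM surgery, and the Laminectomy group gave 1506, 1326, 1130 and 1059 CPM. SHAM mice again lay above all No operation mice, and Laminectomy 3 and 4 lay inside the No operation range. The SHAM change was 1.97-fold (log2 0.98, SE 0.223, adjusted p = 0.00268). The Laminectomy difference was 0.43 on the log2 scale (95% interval -0.05 to 0.92, adjusted p = 0.111). It was called with upper-quartile factors (log2 0.57, adjusted p = 0.0323) and with library sizes only (log2 0.76, adjusted p = 0.00607), and the adjusted p ranged from 0.00607 to 0.248 over the settings.

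*Slc11a1* (gene 18173, chromosome 1, 74375195 to 74386062) encodes NRAMP1, a metal transporter of the phagosome membrane in macrophages and neutrophils that moves iron out of the vesicle in which a red cell is digested. Without surgery, the 4 mice had 27.3, 16.9, 9.72 and 9.39 CPM. The SHAM group had 195, 133, 93.3 and 143 CPM, and the Laminectomy group 139, 62.5, 67.6 and 54.5 CPM. No surgical mouse overlapped with No operation, and mouse 1 was the highest of the 4 in each group. *Slc11a1* rose 8.90-fold in SHAM (log2 3.15, SE 0.419, adjusted p = 7.15e-05) and 5.10-fold in Laminectomy (log2 2.35, SE 0.407, adjusted p = 0.000508).

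*Ftl1* (gene 14325, chromosome 7, 45457944 to 45459884) and *Fth1* (gene 14319, chromosome 19, 9980598 to 9985098) encode the ferritin light chain, which helps form the iron core, and the heavy chain, which oxidizes iron on entry. *Ftl1* stood at 792, 549, 474 and 445 CPM in the No operation group. SHAM mice had 3308, 3539, 1925 and 2606 CPM, and mice with laminectomy had 2925, 1577, 1598 and 1683 CPM. The lowest surgical mouse, Laminectomy 2, was well above the highest No operation mouse. The change was 5.04-fold in SHAM (log2 2.33, SE 0.289, adjusted p = 4.67e-05) and 3.44-fold in Laminectomy (log2 1.78, SE 0.283, adjusted p = 0.000287).

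*Fth1* changed less than its partner. The unoperated mice measured 1649, 1142, 1298 and 1550 CPM. The SHAM values were 3992, 2203, 1695 and 2237 CPM, and those of Laminectomy were 2377, 1375, 1273 and 1413 CPM. SHAM 3 lay only just above No operation 1, and 3 of the 4 Laminectomy mice were inside the No operation range. *Fth1* rose 1.80-fold in SHAM tissue (log2 0.84, SE 0.285, adjusted p = 0.0227), and its log2 difference in Laminectomy tissue was 0.19 (95% interval -0.43 to 0.81, adjusted p = 0.584). The SHAM call was lost without SHAM 1 (log2 0.54, adjusted p = 0.0688), No operation 2 (adjusted p = 0.0584) or No operation 3 (adjusted p = 0.0563), within a range of 0.00306 to 0.0688. The counts of both ferritin genes are uncertain, because GENCODE names 2 pseudogenes after each and the table lists none of the 4.

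*Slc40a1* (gene 53945, chromosome 1, 45908068 to 45926523) encodes ferroportin, the iron exporter of macrophages and other cells. Levels of 15.5, 59.7, 28.5 and 16.5 CPM were found without surgery. SHAM tissue held 65.3, 93.0, 92.1 and 87.3 CPM, and Laminectomy tissue 77.5, 91.8, 111 and 56.0 CPM. The SHAM mice lay inside the wider range of the Laminectomy mice, and No operation 2 was above the lowest Laminectomy mouse. *Slc40a1* rose 2.81-fold in SHAM (log2 1.49, SE 0.387, adjusted p = 0.00584) and 2.80-fold in Laminectomy (log2 1.48, SE 0.387, adjusted p = 0.00628).

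*Cp* (gene 12870, chromosome 3, 19957054 to 20009145) encodes ceruloplasmin, a copper ferroxidase that oxidizes exported iron so that transferrin can bind it. No operation tissue held 89.3, 115, 95.1 and 62.5 CPM. The SHAM group measured 274, 72.5, 98.7 and 83.5 CPM, and the Laminectomy group 57.1, 65.5, 82.4 and 76.1 CPM. All 3 groups overlapped, and SHAM 1 stood far above the other 11 mice. Neither difference from No operation passed the test, at 0.54 on the log2 scale for SHAM (95% interval -0.28 to 1.36, adjusted p = 0.226) and -0.37 for Laminectomy (95% interval -1.19 to 0.45, adjusted p = 0.421). Without SHAM 1 the SHAM difference turned to -0.09. Exons of *Cp* overlap those of *Hps3* on the opposite strand, and reads there cannot be assigned where strand was not used in counting. Exons of *Trf* overlap those of *Gm20425* on the same strand, and exons of *Ftl1* those of *Gm10252* and *Gm22133*. These overlapping genes have no counts here, and whether they entered the counting is not known.

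*Trf* (gene 22041, chromosome 9, 103204001 to 103230444) encodes transferrin, the iron carrier of plasma, which the liver and several other tissues make. Unoperated tissue had 462, 650, 576 and 623 CPM. SHAM mice 1 to 4 had 570, 197, 464 and 138 CPM, and their Laminectomy counterparts had 69.8, 160, 150 and 139 CPM. The SHAM mice fell apart into a pair at No operation levels, SHAM 1 and 3, and a pair near Laminectomy levels, SHAM 2 and 4, while all 4 Laminectomy mice were below every No operation mouse. *Trf* was 4.46-fold lower in Laminectomy (log2 -2.16, SE 0.422, adjusted p = 0.00111). In SHAM its log2 difference was -0.76 (95% interval -1.65 to 0.13, adjusted p = 0.126). Without SHAM 1 this difference passed the test (log2 -1.11, adjusted p = 0.0379), and over the settings the adjusted p ranged from 0.0379 to 0.273.

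*Tfrc* (gene 22042, chromosome 16, 32608920 to 32632794) encodes the transferrin receptor, the route of iron entry that dividing cells and red-cell precursors rely on. The 4 unoperated values were 106, 258, 225 and 117 CPM. Under SHAM surgery they were 60.5, 91.3, 79.7 and 129 CPM, and with laminectomy 192, 160, 209 and 163 CPM. Only SHAM 4 reached into the No operation range, and the Laminectomy mice lay inside it. *Tfrc* was 1.96-fold lower in SHAM (log2 -0.97, SE 0.302, adjusted p = 0.0155) and differed by 0.04 in Laminectomy (95% interval -0.62 to 0.69, adjusted p = 0.922). The SHAM call was lost without No operation 2 (log2 -0.73, adjusted p = 0.0502) and with library sizes only (log2 -0.73, adjusted p = 0.0685), and its adjusted p ranged from 0.00455 to 0.0685.

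**Figure D2:**
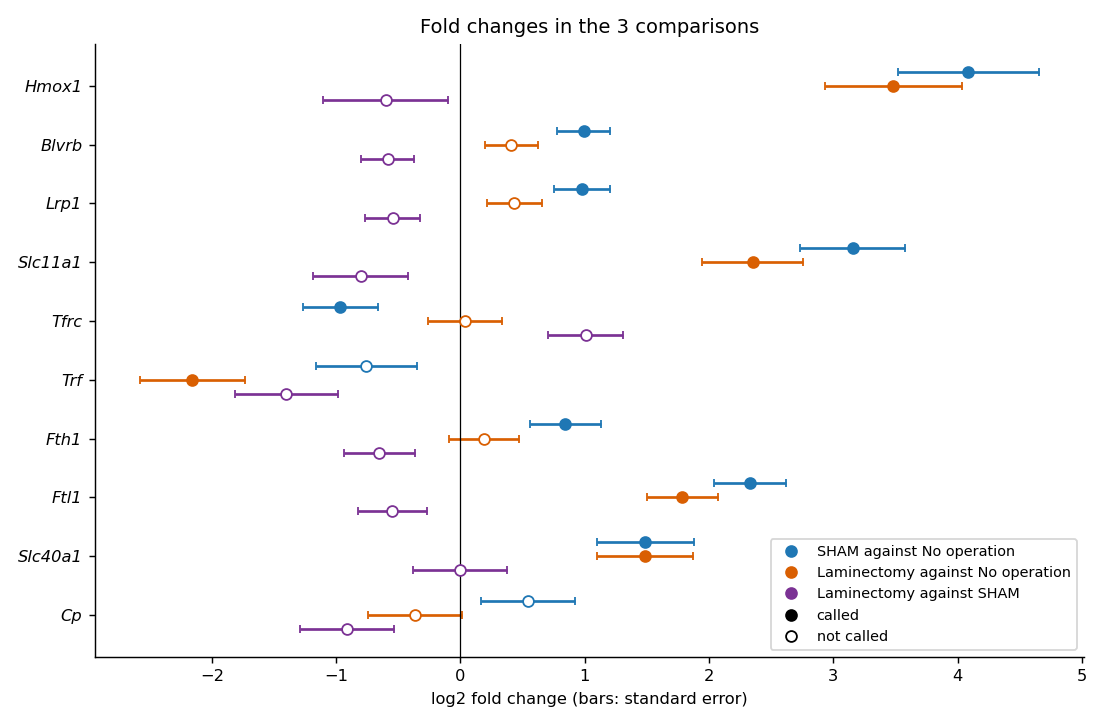
Log2 fold changes of the members from edgeR's quasi-likelihood fit in the 3 comparisons, as points with bars for the standard error, filled where the gene was called and open where it was not. *Hmox1* has the largest rise at 4.08 in SHAM and 3.48 in Laminectomy, *Trf* the largest fall at -2.16 in Laminectomy, and no point of Laminectomy against SHAM is filled.

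Levels of different members were compared per kilobase of the principal GENCODE transcript. In No operation tissue the mean CPM per kilobase was 1518 ± 249 (SD, n = 4) for *Fth1*, 584 ± 163 for *Ftl1*, 225 ± 32.3 for *Trf* and 32.2 ± 25.0 for *Hmox1*. In SHAM tissue *Ftl1* reached 2939 ± 754 and *Fth1* 2725 ± 1081, which overlapped, and *Hmox1* was next at 546 ± 212, above *Trf* at 133 ± 81.0. In Laminectomy tissue *Ftl1* stood at 2010 ± 676, *Fth1* at 1732 ± 555 and *Hmox1* at 360 ± 195. With the length of all annotated exons in place of the principal transcript, *Hmox1* again followed the ferritin chains in both surgical groups (489 and 322 CPM per kilobase) and below *Trf* in No operation (28.8 against 174). The order of the ferritin chains in No operation tissue turned with that choice, to 422 for *Ftl1* and 406 for *Fth1*, and so did the order among the lowest members. In the surgical groups *Ftl1* then stood further above *Fth1*, at 2123 against 730 in SHAM and 1452 against 464 in Laminectomy.

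The comparison of Laminectomy with SHAM asks what removal of the lamina added to soft tissue surgery. None of the 10 members was called, and the share of all genes called was 0.0%, with a smallest adjusted p of 0.0698 by edgeR. At an unadjusted p below 0.05, edgeR gave 2360 genes and 6 members, and DESeq2 gave 2910 genes and 8 members. By edgeR these were *Blvrb*, *Lrp1*, *Fth1*, *Cp* and *Trf* among the genes lower in Laminectomy, where 9.03% of all genes fell at this level, and *Tfrc* among the genes higher, where 6.96% did. DESeq2 with its own adjustment called 696 genes, among them *Tfrc* (adjusted p = 0.0311) and *Trf* (adjusted p = 0.0211). Beside the lower members, all 10 macrophage markers stood lower in Laminectomy than in SHAM (median log2 difference -0.80, 7 at an unadjusted p below 0.05), as did all 8 resident macrophage markers (median -1.19, 2 at that level), and edgeR called 0 of either list and DESeq2 2 of each.

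*Tfrc* was the 1 member whose SHAM and Laminectomy mice did not overlap, which held for 10.1% of all genes. Its difference was 1.01 on the log2 scale (95% interval 0.34 to 1.67, adjusted p = 0.157), and over the settings the adjusted p ranged from 0.0311 to 0.403. *Trf* differed by -1.40 (95% interval -2.30 to -0.50, adjusted p = 0.152), with a range of 0.0211 to 0.413. For *Hmox1* the interval ran from -1.70 to 0.50 around a log2 difference of -0.60, for *Slc11a1* from -1.64 to 0.04 around -0.80, and for *Ftl1* from -1.15 to 0.06 around -0.55. *Slc40a1* gave the smallest difference, -0.01, with an interval of -0.83 to 0.82.

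The ratio of one member to another within a mouse does not depend on how the libraries were scaled. The ratio of *Ftl1* to *Fth1* counts was 0.480, 0.481, 0.365 and 0.287 in No operation mice, 0.8286, 1.61, 1.14 and 1.16 in SHAM mice and 1.23, 1.15, 1.26 and 1.19 in Laminectomy mice. Every surgical mouse had a higher light to heavy chain ratio than every No operation mouse, and the Laminectomy mice were nearly alike. The mean log2 ratio differed by 1.55 in SHAM and by 1.61 in Laminectomy, each with the smallest two-sided p that an exact permutation test of 4 against 4 mice allows, 0.0286. After Benjamini-Hochberg adjustment over the 15 ratio tests made, this p was 0.0612, so no ratio passed the threshold.

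The ratio of *Hmox1* to *Blvrb*, the consecutive steps of heme breakdown, was 5.90, 1.59, 1.03 and 1.29 in No operation mice, 24.7, 14.9, 16.5 and 19.0 in SHAM mice and 26.0, 17.2, 13.5 and 16.5 in Laminectomy mice. The surgical groups overlapped fully with each other and not at all with No operation (exact permutation p = 0.0286 in each, 0.0612 adjusted). The ratio of *Tfrc* to *Fth1*, iron entry to iron storage, was 0.0641, 0.226, 0.173 and 0.0754 in No operation mice, 0.0152, 0.0415, 0.0471 and 0.0576 in SHAM mice and 0.0808, 0.116, 0.164 and 0.115 in Laminectomy mice. SHAM mice were below both other groups without overlap, by 1.70 on the log2 scale from No operation and by 1.68 from Laminectomy (exact permutation p = 0.0286, 0.0612 adjusted). The ratio of *Cp* to *Slc40a1* was lower by 2.01 on the log2 scale in Laminectomy than in No operation at the same p, and that of *Slc40a1* to *Fth1* overlapped in all 3 comparisons.

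**Figure D3:**
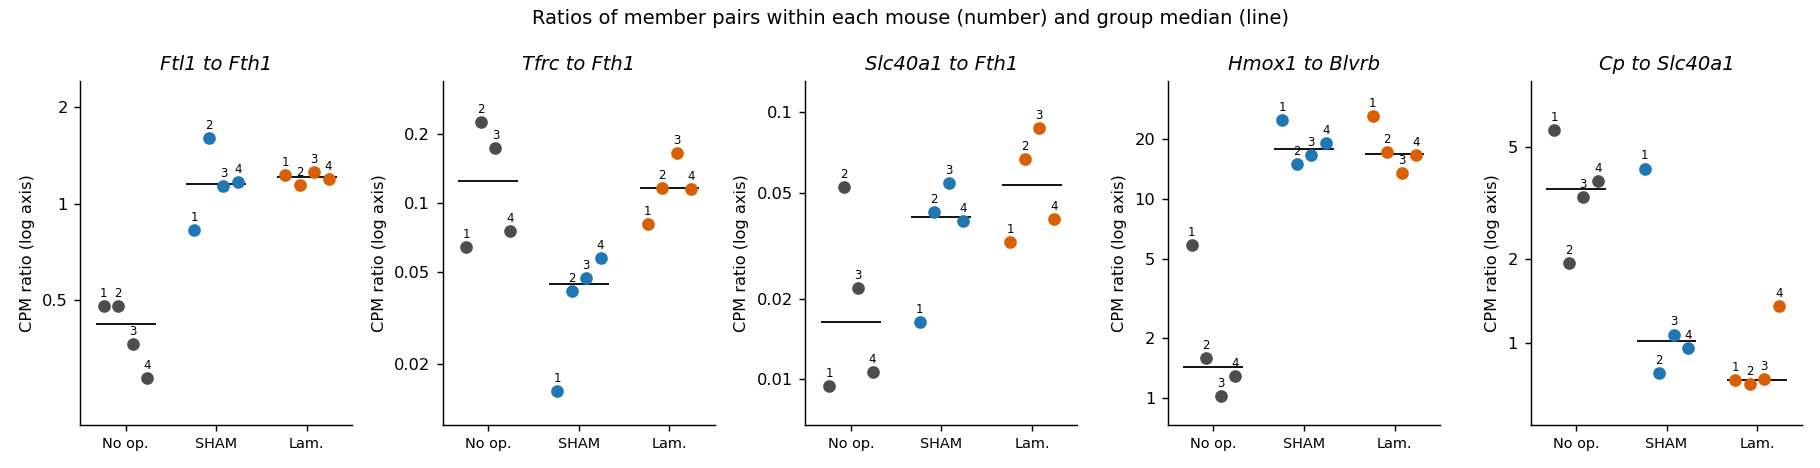
Ratio of the CPM of 5 pairs of members within each mouse (log axis), with points numbered by replicate and the line the group median. *Ftl1* to *Fth1* lies between 0.287 and 0.481 in No operation mice and between 0.8286 and 1.61 in the 8 surgical mice, and *Tfrc* to *Fth1* is lowest in SHAM mice.

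Markers of macrophages, the cell type in which *Hmox1*, *Slc11a1* and *Slc40a1* are best known, moved with the same groups. All 10 macrophage markers were called higher in SHAM and 9 of 10 in Laminectomy, with median log2 fold changes of 2.17 and 1.36. Their summed level was 631.5 to 1479 CPM in No operation, 3370 to 6218 CPM in SHAM and 2112 to 2963 CPM in Laminectomy, and none was at 0 in any mouse. The highest mouse of each group in this sum was No operation 1, SHAM 1 and Laminectomy 1, which were also the mice with the highest *Hmox1* and *Slc11a1* of their groups. Abundant members of the list were *Csf1r*, *C1qb* and *Mrc1*, and the last of these was not called in Laminectomy (log2 0.59, adjusted p = 0.167).

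Set against the mean log2 level of these 10 markers in the same mouse, *Hmox1* was still higher by 1.96 on the log2 scale in SHAM and by 2.00 in Laminectomy, without overlap between surgical and No operation mice. *Slc11a1* was higher by 0.90 and 0.74, also without overlap. The *Ftl1* difference was -0.01 and 0.13, and *Slc40a1* gave -0.64 and 0.02, each with overlapping groups. *Fth1* was lower relative to the markers by 1.56 and 1.48, *Lrp1* by 1.34 and 1.18 and *Blvrb* by 1.33 and 1.24, and *Blvrb* overlapped in Laminectomy. *Trf* was lower relative to them by 3.32 and 3.86, *Tfrc* by 3.25 and 1.51 and *Cp* by 1.99 in each, and *Tfrc* overlapped in Laminectomy. The smallest exact permutation p was again 0.0286, or 0.0571 after adjustment over 30 tests, so none passed. The markers themselves had log2 fold changes of 1.27 (*Mertk*) to 3.52 (*Fcgr1*) in SHAM and of 0.59 (*Mrc1*) to 3.02 (*Fcgr1*) in Laminectomy. The differences from their mean thus depend on which markers are averaged. What part cell numbers had in each difference was not tested.

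**Figure D4:**
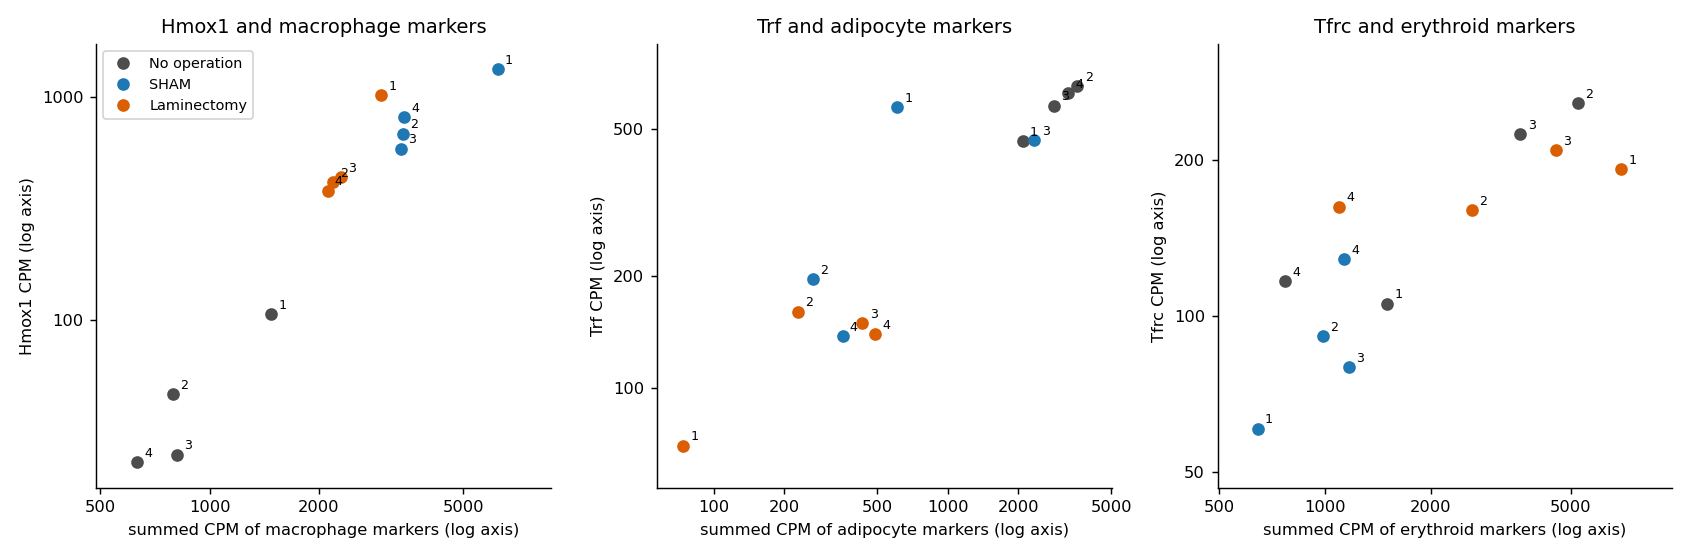
Each mouse's CPM of *Hmox1*, *Trf* and *Tfrc* (y, log axis) against the summed CPM of macrophage, adipocyte and erythroid markers in turn (x, log axis), colored by group and numbered by replicate. Mouse 1 is highest in *Hmox1* and macrophage markers in each group, and SHAM 3, with the most adipocyte marker RNA of the SHAM mice, has a *Trf* level of No operation size, as does SHAM 1.

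Adipocyte markers followed the same order of groups as *Trf*, a gene that fat tissue also expresses, but not every mouse did. Their sum was 2092 to 3585 CPM without surgery, 606, 266, 2348 and 355 CPM for SHAM mice 1 to 4, and 74.1 to 490 CPM with laminectomy. SHAM 3 and SHAM 1, the pair with high *Trf*, had the most adipocyte marker RNA of the SHAM mice, and Laminectomy 1, the lowest in *Trf* of all 12 mice at 69.8 CPM, had the least. SHAM 1 had more *Trf* than SHAM 3 with far less adipocyte marker RNA, and Laminectomy 2, the highest of its group in *Trf*, had 229 CPM of these markers where Laminectomy 4 had 490. All 7 adipocyte markers were called lower in Laminectomy (median log2 fold change -4.34), led in level by *Cfd*, *Fabp4* and *Adipoq*. In SHAM 3 of 7 were called lower (median -2.29), and this became 7 without SHAM 3 and 1 without SHAM 1 or SHAM 4. Of 6 hepatocyte markers, which would mark the main source of plasma transferrin, only *Alb* passed the filter on low counts, at no more than 1.89 CPM. It was called lower in Laminectomy (adjusted p = 0.0149), where it was at 0.104 CPM or below. This call was lost with only the groups compared in the fit. Myelin and glia markers summed to 245, 55.0, 179 and 44.1 CPM in SHAM mice 1 to 4, which ranked these mice as *Trf* did. They also ranked the No operation mice as *Trf* did. In Laminectomy they did not, with 42.9 CPM in Laminectomy 1, 40.0 CPM in Laminectomy 4 and 798 CPM in Laminectomy 2, the most of all mice. The part of fat or of glia in the *Trf* difference was not tested.

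Erythroid markers moved with *Tfrc* less evenly. Their sum was 1504, 5241, 3596 and 771 CPM without surgery. The SHAM group reached 642, 983, 1170 and 1131 CPM, and the Laminectomy group 6957, 2614, 4548 and 1095 CPM. No operation 2 and 3, the highest in these markers within their group, were also the highest in *Tfrc*. Laminectomy 1 had the largest sum of any mouse but less *Tfrc* than Laminectomy 3. By the median log2 level of the 10 markers this order turned, with 6.25 in Laminectomy 1 and 7.18 in Laminectomy 3. Laminectomy 3 was then the highest of its group in both. Laminectomy 4 had a lower median than Laminectomy 2, 4.15 against 6.19, but slightly more *Tfrc*. Of 10 markers tested, 2 (*Hbb-bt* and *Alas2*) were called lower in SHAM and 0 in Laminectomy, where edgeR gave 0 at an unadjusted p below 0.05 and DESeq2 called 0. In Laminectomy against SHAM all 10 stood higher (median log2 difference 2.22), with 6 at an unadjusted p below 0.05 and 0 called by edgeR, and 5 called by DESeq2. The SHAM count against No operation was 6 with DESeq2, 4 with only the groups compared, 1 with upper-quartile factors or without the filter, and 0 with library sizes only or the replicate block. It also moved with the mice used, to 0 without any 1 of the SHAM mice or No operation 2 or 3, 7 without No operation 1, 8 without No operation 4, 5 without Laminectomy 1 or 4 and 1 without Laminectomy 2 or 3. Hemoglobin genes such as *Hba-a1* and *Hba-a2* are near-identical copies, so their separate counts are uncertain, and the part of red-cell precursors in the *Tfrc* difference was not tested.

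Other tissues also differed between the groups. The 10 skeletal muscle markers, among them *Myh4*, *Acta1* and *Ckm*, were called lower in SHAM and in Laminectomy, with median log2 fold changes of -4.12 and -3.57, and their sum was 85494 to 120926 CPM in No operation and at most 11557 CPM in a surgical mouse. Of 8 fibroblast markers, 6 were called higher and 1 lower in each surgical group. Of 7 neutrophil markers, 1 was called in SHAM and 0 in Laminectomy by edgeR, where 1 was at an unadjusted p below 0.05 and DESeq2 called 1, and these counts became 2 and 2 without No operation 2. The SHAM count was also 2 without SHAM 2, with DESeq2 or with library sizes only, and the Laminectomy count was 1 without No operation 4, with DESeq2, with upper-quartile factors or with library sizes only. Of 8 resident macrophage markers, 4 were called higher and 2 lower in SHAM, and 3 higher and 2 lower in Laminectomy. Beside these lists, 25.7% of all genes were called higher and 25.1% lower in SHAM, and 24.2% and 24.4% in Laminectomy. The shares of resident macrophage markers called lower were near those of all genes. Myelin and glia markers summed to 798 CPM in Laminectomy 2 and to at most 245 CPM in the other mice. Of 6 tested, *Gfap* was called higher in Laminectomy (log2 4.50, adjusted p = 0.0116), from at most 1.60 CPM in No operation to 52.7 CPM in Laminectomy 2 and 0.261 CPM in Laminectomy 4. The count was 3 without Laminectomy 1 or 2, with DESeq2 or without the filter, and 2 without Laminectomy 4 or with library sizes only.

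Of 14 genes of heme and hemoglobin clearance tested, 8 were called higher and 1 lower in SHAM (median log2 fold change 0.99), where 25.7% of all genes were called higher. In Laminectomy 4 were called higher and 1 lower (median 0.34), near the background of 24.2%, and 8 were called with library sizes only. With a log2 fold change above 1 the counts were 4 and 2. Medians over all genes lay within 0.01 of 0. Among non-members, *Spic*, a transcription factor of iron-recycling red pulp macrophages, measured 0.551, 2.01, 0.599 and 0.140 CPM without surgery, 5.11 to 6.67 CPM in SHAM and 4.76 to 7.24 CPM in Laminectomy. Though low in level, it did not overlap between surgical and No operation mice, and was called higher in both (adjusted p = 0.000621 and 0.000848), with no firm size of the fold change at so low a No operation level. *Blvra*, the main biliverdin reductase, rose by 1.07 and 0.76, and *Bach1*, a heme-sensing repressor of *Hmox1*, rose by 1.06 and 0.61 on the log2 scale. *Flvcr1*, described as a heme exporter, was the 1 gene of the list that was called lower, at -0.79 and -0.73.

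The plasma and surface proteins that bind free hemoglobin and heme were named after their values were seen, since they stand at the entry to the pathway. *Cd163*, the hemoglobin scavenger receptor, had 191, 56.8, 103 and 88.1 CPM in unoperated tissue. SHAM tissue held 585, 122, 192 and 44.8 CPM, and Laminectomy tissue 9.26, 33.2, 70.2 and 42.8 CPM. It overlapped between SHAM and No operation and was not called in either comparison (adjusted p = 0.208 and 0.102). *Hp*, which encodes the hemoglobin carrier haptoglobin, differed by 0.93 in SHAM (adjusted p = 0.0663) and by -0.50 in Laminectomy (adjusted p = 0.307). *Hpx*, which encodes the heme carrier hemopexin, was at 1.35 CPM or below in every mouse.

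Of 14 genes of iron uptake tested, 7 were called higher and 2 lower in SHAM (median log2 fold change 0.54), where 25.7% and 25.1% of all genes were. In Laminectomy 6 were called higher and 1 lower (median 0.73), beside 24.2% and 24.4%. *Steap1*, of a family of metal reductases, was at 0.140 to 1.72 CPM in No operation, 11.6 to 20.1 CPM in SHAM and 6.99 to 12.6 CPM in Laminectomy, and was called higher in both (adjusted p = 3.54e-05 and 0.000105), with no firm size of the fold change at so low a No operation level. *Steap2*, of the same family, rose by 2.79 and 2.28. *Meltf*, which encodes melanotransferrin, was called lower in SHAM (log2 -3.49, adjusted p = 0.046), but it was at 2.27 CPM or below in No operation and at 0 in 3 of 4 SHAM mice, so this fold change has no firm size.

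*Ncoa4*, the receptor that delivers ferritin to lysosomes, and the iron chaperones *Pcbp1* and *Pcbp2* had log2 differences between 0.05 and 0.25 in both comparisons, and of the 5 storage genes tested only the 2 ferritin chains in SHAM and *Ftl1* in Laminectomy were called, though with library sizes only 2 storage genes were called in Laminectomy. Of 4 export genes, *Slc40a1* was called higher in each surgical group, *Hephl1*, a ferroxidase related to *Cp*, was called lower in SHAM (log2 -1.51, adjusted p = 0.0327), and *Heph*, which encodes the ferroxidase hephaestin, was called lower in Laminectomy (log2 -0.95, adjusted p = 0.0315). The *Hephl1* call was lost without SHAM 1 or SHAM 4, with library sizes only, with only the groups compared in the fit and with the replicate block. The *Heph* call was lost without No operation 2, 3 or 4, without Laminectomy 1, 2 or 4 and with upper-quartile factors or library sizes only.

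Among 9 genes of iron regulation tested, 2 were called higher and 3 lower in SHAM, shares near those of all genes (25.7% and 25.1%), and 1 higher and 3 lower in Laminectomy (24.2% and 24.4% of all genes). *Hjv*, which encodes hemojuvelin and is made by skeletal muscle, was at 394 to 564 CPM in No operation and at 7.86 to 82.4 CPM in the surgical mice, and fell by 3.39 and 2.82 on the log2 scale, beside the loss of muscle marker RNA. *Bmp6*, a ligand that drives hepcidin in the liver, fell by 2.63 and 2.51. *Erfe*, the erythroid hormone erythroferrone, which muscle also makes, was called higher in Laminectomy (log2 1.45, adjusted p = 0.0197) and differed by 0.60 in SHAM (adjusted p = 0.283). *Hamp* and *Hamp2*, the hepcidin genes, and *Tmprss6* were too low to test.

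Of 12 genes of mitochondrial iron handling and iron-sulfur clusters, 9 were called in SHAM and 7 in Laminectomy, each of them lower, where 25.1% and 24.4% of all genes were called lower, and the medians were -0.92 and -0.71. *Isca1*, an assembly factor for these clusters, fell by 1.54 and 1.51 on the log2 scale, and *Nfs1*, the sulfur donor enzyme, by 1.44 and 1.39. Of 9 heme synthesis genes, 7 were called in SHAM and 5 in Laminectomy, again each lower, and the medians were -0.95 and -0.62. The Laminectomy count depended on the scaling, at 2 with upper-quartile factors and 1 with library sizes only, and with a log2 fold change above 1 the counts were 4 and 0. *Fech*, the enzyme that inserts iron into the heme ring, was at 168 to 192 CPM in No operation, 63.9 to 95.9 CPM in SHAM and 80.3 to 125 CPM in Laminectomy, and fell by 1.20 and 0.80, while *Uros*, an earlier enzyme of the path, fell by 1.12 and 0.67. *Alas2*, the erythroid form of the rate-limiting enzyme and one of the erythroid markers above, fell by 1.88 in SHAM (adjusted p = 0.0386) and stood at 0.31 in Laminectomy (adjusted p = 0.718). This call was lost without any 1 of the SHAM mice or No operation 2 or 3, with library sizes only and with the replicate block. These changes ran beside the lower muscle marker RNA given above, a tissue rich in mitochondria, and its part in them was not tested.

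**Figure D5:**
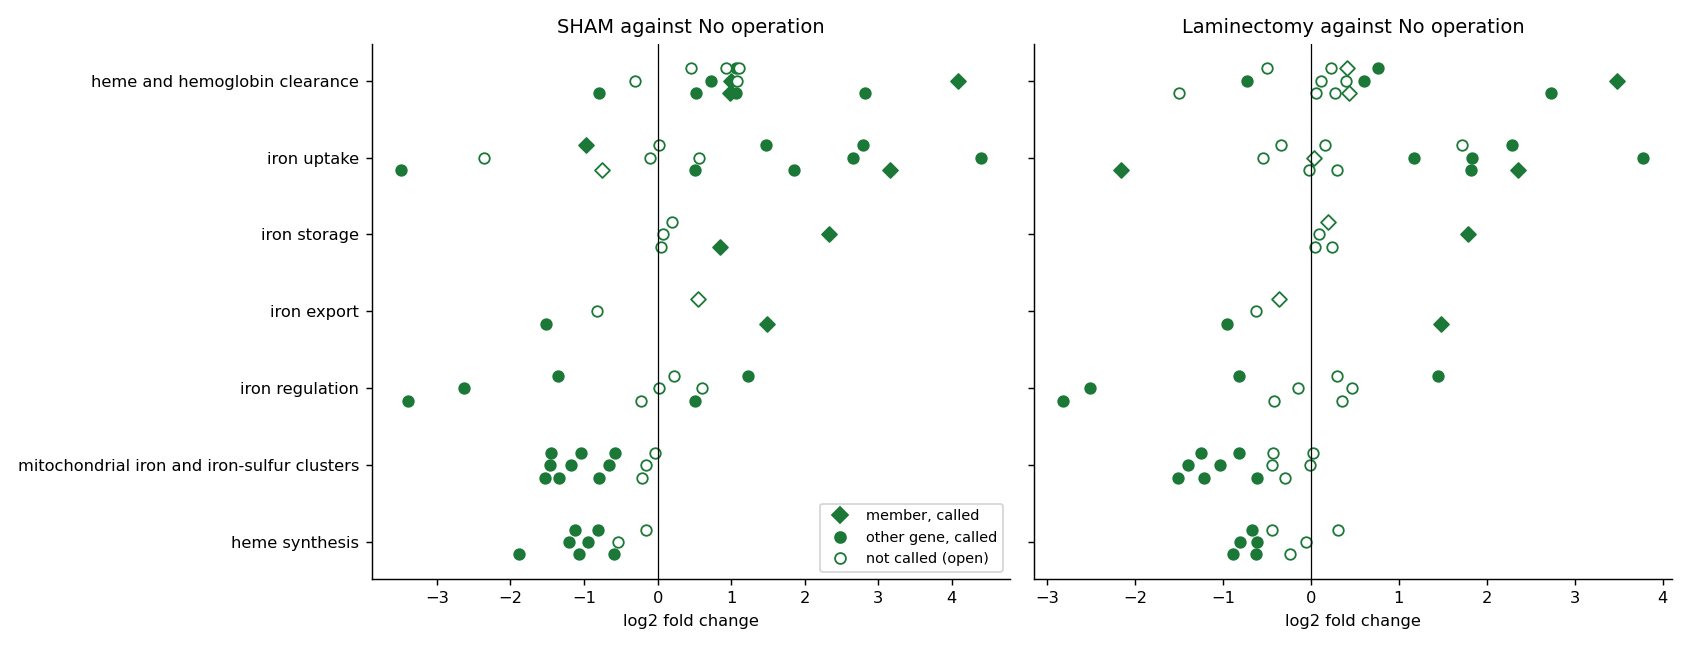
Log2 fold changes of the genes of 7 iron and heme lists in SHAM and in Laminectomy against No operation, with diamonds for the 10 members, circles for other genes and filled symbols for called genes. Points of mitochondrial iron and heme synthesis lie mostly left of 0 (medians -0.92 and -0.95 in SHAM), and those of heme clearance mostly right of it (median 0.99 in SHAM).

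The genes whose profile over the 12 mice was most like that of 3 members were found by the root mean square difference of centered log2 CPM, among 10626 genes with a mean of at least 10 CPM. For *Hmox1* they were *Cd300c2* (0.266 on the log2 scale), *Basp1* (0.329) and *Fcgr1* (0.349), which rose from 4.71, 11.04 and 8.74 CPM in No operation to 61.1, 124 and 100.2 CPM in SHAM on average. For *Slc40a1* they were *Plxnc1* (0.253), *Ncaph* (0.292) and *Wdhd1* (0.298). For *Trf* they were *Chrdl1* (0.298), *Selenbp1* (0.312) and *Slco2b1* (0.315), which all stood highest in No operation and lowest in Laminectomy on average. This likeness is a description over mice that fall into 3 groups.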

How the data were processed

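Per the labels, polyadenylated RNA of 12 mice was made into stranded libraries. The submitters' processing notes name STAR 2.6.1b, featureCounts 2.0.1 and DESeq2 1.30.1 with GRCm38/mm10, and the study states default counting, which does not use strand. The authors deposited 1 table of estimated counts that are not normalized: 10.22% of the values were not whole, in 2933 genes, and the step that made them so is not given in the sources used here. Whole counts had been assumed, so values were rounded, changing none by more than 0.5. Groups and replicate numbers came from the labels, and no column of another sample was present. No 2 libraries of a group were alike within sampling noise.

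All 12 libraries entered 1 fit with edgeR 4.0.16 in R 4.3.3, with TMM factors (0.849 to 1.13), its filter on low counts by group, the quasi-likelihood test and Benjamini-Hochberg adjustment over 14765 genes. SE is the log2 fold change divided by the square root of F, and log2 CPM used a prior count of 2. Two-sided exact permutation tests on ratios used scipy 1.17.1. Alternatives were DESeq2 1.42.0, other scaling factors, no filter, only the groups compared, a fold change above 1, a replicate block and leaving out each mouse.

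The members and lists were chosen with earlier results of these data known. Named genes were all members, at most 3 called non-members per pathway list with the largest fold change, at most 3 markers per list with the highest level, and the 3 genes most like *Hmox1*, *Slc40a1* and *Trf*. A gene that this rule names in the mitochondrial list is not reported here. *Flvcr1*, *Ncoa4*, *Pcbp1*, *Pcbp2*, *Hamp*, *Hamp2*, *Tmprss6*, *Cd163*, *Hp* and *Hpx* were named after their values were seen.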

Additional observations from a re-analysis of the deposited data

Results flagged for a closer look

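In groups of 4 mice, the highest or lowest mouse was set against the others by Dixon's test for the members and their ratios, 45 groups in all. Chance alone marks about 1 in 20 groups, and 8 were marked. Laminectomy 1 was the highest of its group in 4 members, with *Hmox1* at 1021 CPM (others 382 to 438), *Slc11a1* at 138.6 CPM (others 54.5 to 67.6), *Fth1* at 2377 CPM (others 1273 to 1413) and *Ftl1* at 2925 CPM (others 1577 to 1683). The same mouse had the most macrophage marker RNA of its group, a sum of 2963 CPM, and the part of these cells was not tested. SHAM 1 had *Cp* at 274 CPM (others 72.5 to 98.7) and a *Cp* to *Slc40a1* ratio of 4.19 (others 0.781 to 1.07). The same ratio was 1.36 in Laminectomy 4 (others 0.714 to 0.742). The *Hmox1* to *Blvrb* ratio was 5.90 in No operation 1 (others 1.03 to 1.59).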

How the results depend on the processing

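Counts of called genes and members moved by over 1.5 times only with a higher fold threshold and with DESeq2. With other scaling factors, no filter or only the groups compared, 7163 to 7848 genes and 7 to 8 members were called in SHAM against No operation and 6981 to 7797 genes and 5 to 7 members in Laminectomy against No operation. Without 1 mouse the ranges were 6966 to 7642 genes and 6 to 8 members, and 6534 to 7416 genes and 5 to 6 members. In each of these, 0 were called in Laminectomy against SHAM. With a log2 fold change above 1, 4589 genes and 4 members were called in SHAM and 4323 genes in Laminectomy, and *Blvrb*, *Fth1*, *Tfrc* and *Lrp1* were not called in SHAM. DESeq2 called 696 genes and 2 members in Laminectomy against SHAM. With library sizes only, the median of all genes moved to 0.25 in SHAM and 0.33 in Laminectomy, and 66.0% and 69.9% of calls were higher, against 50.6% and 49.8% with TMM factors.

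The *Slc40a1* difference of Laminectomy from SHAM turned to 0.0013 with DESeq2, 0.0027 with RLE factors, 0.0452 with upper-quartile factors and 0.0514 with library sizes only. With the median of the macrophage markers in place of their mean, *Ftl1* in SHAM turned to 0.0783 and *Cp* in Laminectomy against SHAM to 0.0823. Leaving out 1 mouse turned the sign of some log2 differences that were not called: in SHAM against No operation, *Cp* ran from -0.092 to 0.75 and *Ftl1* to macrophage markers from -0.19 to 0.10. In Laminectomy against No operation, *Fth1* ran from -0.0573 to 0.29, *Tfrc* from -0.14 to 0.28, *Tfrc* to *Fth1* from -0.31 to 0.29 and *Slc40a1* to macrophage markers from -0.49 to 0.46. In Laminectomy against SHAM, *Slc40a1* ran from -0.17 to 0.15, *Ftl1* to *Fth1* from -0.0929 to 0.23, *Hmox1* to *Blvrb* from -0.24 to 0.0871 and, relative to macrophage markers, *Blvrb* from -0.0059 to 0.18, *Cp* from -0.16 to 0.22, *Fth1* from -0.0301 to 0.15 and *Hmox1* from -0.18 to 0.14. The cause was not tested.

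The labels do not say that a shared number marks a shared origin, so same-numbered mice were not taken as pairs. Their deviations from the group means did correlate above 0.1 in 7 of 12 pairs of libraries (-0.23 to 0.35). Among these were all pairs of numbers 1 and 3. Whether same-numbered mice share an origin was not tested. With the replicate block, 7440, 7153 and 0 genes and 8, 5 and 0 members were called in SHAM, in Laminectomy and between them, and no member's call changed. In the lists, the block moved iron export in SHAM from 2 calls to 1 and erythroid markers in SHAM from 2 to 0.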
